A study of Mus musculus with 10 samples.

Results

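The conjugation genes described here are rows of the deposited count table, taken by their symbols. Some symbols name a glutathione transferase of class alpha, kappa, mu, omega, pi or theta, or Mgst1 to Mgst3. The others name a Ugt1a, Ugt2a or Ugt2b enzyme or a numbered sulfotransferase. Glutathione transferases of other classes were not taken. By this rule there were 41 such genes among 22457 rows. The set was chosen from the observation, in these same libraries, that Ugt1a genes were lower in the knockout. For the 41 genes the comparison of the groups is therefore a description. No p-value is given for any of them, and counts of calls stand only beside the share called over all genes.

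Conjugation enzymes attach a water-soluble group to drugs, pollutants, hormones and the cell's own reactive products, so that pumps can carry the conjugate out of the cell. Glutathione transferases (Gst and Mgst genes) add glutathione, UDP-glucuronosyltransferases (Ugt genes) add glucuronic acid and sulfotransferases (Sult genes) add sulfate. In the airway these enzymes are best known from club cells, the secretory cells that also carry out much of the oxidation of inhaled compounds.

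The libraries came from tracheal epithelial organoids of mouse, which are multicellular structures grown in Matrigel from basal cells, which renew the epithelium of the trachea, and were taken on day 14. One group was labelled Ctrl and the other M3-CKO, by the title of the series a knockout of Mettl3, the enzyme that writes N6-methyladenosine on mRNA. Each group had 3 RNA-seq libraries. Both groups had the same media, with insulin, transferrin, cholera toxin, epidermal growth factor, bovine pituitary extract and retinoic acid throughout, serum, A83-01 and DMH-1 during growth, and Y-27632 at first. The sources used here do not give the allele, the Cre driver, the strain, the age of the mice, or whether replicates were separate animals or cultures. If they were neither, p-values measure technical spread alone. If they were separate cultures of the same animal in each group, p-values measure spread between cultures and not between animals.

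Totals ran from 8906375 to 10485922 counts per library, so that 1 CPM (the gene's count scaled to the size of its library) rested on 8.91 to 10.5 counts before TMM scaling. The epithelial markers Epcam, Cdh1, Krt18 and Krt19 summed to 2740 to 3672 CPM in every library. Of the mesenchymal and endothelial markers 3 of 6 and 2 of 4 had a row and summed to at most 12.4 and 1.14 CPM. Immune markers (3 of 6 with a row) summed to 450.4 to 1423 CPM, most of it Lyz2, while Ptprc had at most 0.211 CPM. Cartilage markers (3 of 4 with a row) summed to 11.2 to 77.2 CPM, nearly all of it Sox9. Mettl3 itself stood at 14.96, 17.02 and 18.9 CPM in Ctrl and at 11.1, 10.3 and 9.87 CPM in M3-CKO. With all 6 libraries edgeR did not call this difference (log2 fold change -0.70, SE 0.21, adjusted p = 0.12). The DESeq2 Wald test called it, as did edgeR without M3-CKO replicate 3. Without any other single library edgeR did not call it. M3-CKO replicate 3 stood apart from its group. Its Pearson r across genes was 0.919 and 0.908 with M3-CKO replicates 1 and 2, which had 0.985 with each other. With Ctrl replicates 1 to 3 it had 0.922, 0.925 and 0.919, so it was no closer to its own group than to Ctrl. M3-CKO replicates 1 and 2 had 0.924 to 0.934 with the Ctrl libraries. Club cell markers (6 of 6 with a row) summed to 3388 to 3877 CPM in Ctrl. In M3-CKO they summed to 2441 and 1944 CPM for replicates 1 and 2 and to 5124 CPM in replicate 3. Hillock and squamous markers (5 of 5 with a row) summed to 680.5 to 891.9 CPM in Ctrl and to 364.8, 338.2 and 1159 CPM in M3-CKO. In replicate 3 Sprr2a3 alone gave 869.9 CPM of that sum, and the other 4 (Krt4, Krt13, Krt6a and Sprr1a) were below every Ctrl library. Within the club list Cyp2f2 held most of the counts, and Scgb1a1 had only 2.81 to 5.57 CPM in Ctrl and 37.5 to 358.5 CPM in M3-CKO. In bulk RNA, fewer cells of a type and less RNA per cell cannot be told apart.

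Of the 41 genes, 27 passed the filter on low counts and were tested. The other 14 were Gsta1, Gsta2, Gstm3, Gstp3, Gstt2, Sult1c1, Sult1c2, Sult4a1, Sult5a1, Sult6b1, Ugt1a2, Ugt1a5, Ugt1a9 and Ugt2b35. Sult1c2 reached 25 counts in a library and the other 13 at most 9, so differences in them were not detectable at this depth. Many of the 41 are members of tandem clusters of similar copies, and the sources used here do not say how reads that fit several copies were counted. Values of single members of the Gstm, Gstp, Gstt and Ugt1a clusters are uncertain to that extent.

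The Ugt1a genes are an unusual cluster. Each has a first exon and a promoter of its own, and all splice to the same later exons, so their proteins share the part that binds the sugar donor and differ in the part that binds the substrate. A read from the shared exons fits every Ugt1a gene, so the values of single genes may share or lose such reads. The promoters of 3 Ugt1a genes are printed as examples of these separate starts. Those of the 2 tested genes that were higher in every M3-CKO library are set beside them. The printed windows are the 250 bases before the annotated start from RefSeq on GRCm38.p6. The table used matched 37 of the 41 symbols (not Ugt1a6b, Gsta4, Gstt2 or Sult4a1). The counts were made on mm39, and these coordinates belong to GRCm38.p6 only. They lie at chr1:88094751-88095000 (plus strand) for Ugt1a7c, chr1:88134559-88134808 (plus) for Ugt1a6a, chr1:88211709-88211958 (plus) for Ugt1a1, chr5:86906938-86907187 (minus) for Ugt2b34 and chr3:51660929-51661178 (plus) for Mgst2. Capitals mark the AP-1 letters TGANTCA, on either strand.

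Ugt1a7c: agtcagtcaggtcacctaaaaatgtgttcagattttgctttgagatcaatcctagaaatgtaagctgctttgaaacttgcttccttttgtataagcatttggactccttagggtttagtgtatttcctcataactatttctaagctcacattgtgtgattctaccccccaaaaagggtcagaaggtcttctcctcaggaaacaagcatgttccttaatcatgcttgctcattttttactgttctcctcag
Ugt1a6a: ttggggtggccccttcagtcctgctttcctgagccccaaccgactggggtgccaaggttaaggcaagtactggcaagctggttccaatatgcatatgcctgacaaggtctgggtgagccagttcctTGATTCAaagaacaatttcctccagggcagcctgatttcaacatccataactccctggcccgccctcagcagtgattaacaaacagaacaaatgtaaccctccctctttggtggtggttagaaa
Ugt1a1: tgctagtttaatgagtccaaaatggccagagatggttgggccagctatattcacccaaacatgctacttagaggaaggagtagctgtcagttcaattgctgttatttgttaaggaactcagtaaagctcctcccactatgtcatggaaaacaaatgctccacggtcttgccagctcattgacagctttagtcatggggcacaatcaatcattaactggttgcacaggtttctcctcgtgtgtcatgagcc
Ugt2b34: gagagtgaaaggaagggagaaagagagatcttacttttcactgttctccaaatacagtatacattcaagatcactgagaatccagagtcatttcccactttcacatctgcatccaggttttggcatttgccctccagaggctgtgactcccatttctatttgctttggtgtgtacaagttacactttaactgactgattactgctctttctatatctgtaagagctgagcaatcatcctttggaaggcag
Mgst2: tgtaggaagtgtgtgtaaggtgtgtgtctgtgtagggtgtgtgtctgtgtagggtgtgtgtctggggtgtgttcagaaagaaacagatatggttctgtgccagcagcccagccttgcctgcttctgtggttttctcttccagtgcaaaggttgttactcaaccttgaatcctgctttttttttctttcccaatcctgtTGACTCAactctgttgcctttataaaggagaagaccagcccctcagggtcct

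The longest run of bases that any pair of the 3 Ugt1a windows shared was 8. AP-1 letters were found once in the Ugt1a6a window, ending 117 bases before the start, and once in that of Mgst2, ending 45 bases before it. The Ugt1a7c, Ugt1a1 and Ugt2b34 windows held none. Over the tested genes, 6 of 35 windows (17.1%) held TGANTCA, against 6.75% of the 32851 windows in the table. The core of the antioxidant response element that NRF2 binds, TGACNNNGC on either strand, was in 4 of 35 windows (11.4%; 10.2% of all), those of Gsta3, Gstm5, Gstm7 and Mgst1. The core that the aryl hydrocarbon receptor binds, GCGTG on either strand, was in 8 of 35 (22.9%; 28.2% of all). In Gstm5 this core overlapped both other motifs. These matches are letters in a window and not sites, and several genes have more than 1 window. Of the 6 windows with TGANTCA, those of Gstp1 and Gstp2 are near copies around the match, so they are not separate cases.

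Ugt1a6a and Ugt1a7c held most of the Ugt1a counts. Their enzymes glucuronidate small phenols and other planar compounds. In replicates 1 to 3, Ugt1a6a had 162.6, 178.0 and 147.7 CPM in Ctrl but 42.2, 51.6 and 73.3 CPM in M3-CKO. Ugt1a7c stood at 84.3, 129.3 and 116.5 CPM in Ctrl and at 17.7, 21.7 and 44.0 CPM in M3-CKO. In both genes the groups did not overlap, with M3-CKO lower and its replicate 3 the highest of the group. The mean fell from 162.8 ± 15.2 to 55.7 ± 15.97 CPM (SD, n = 3) for Ugt1a6a and from 110.0 ± 23.2 to 27.8 ± 14.2 CPM for Ugt1a7c, that is to 34.2% and 25.3% of Ctrl. Ugt1a6b, a near copy of Ugt1a6a, stood at 13.2, 10.8 and 10.00 CPM in Ctrl and at 2.70, 2.74 and 4.88 CPM in M3-CKO, 30.4% of the Ctrl mean. Ugt1a1, the enzyme that conjugates bilirubin, was low in all libraries, with 2.51, 1.37 and 2.13 CPM in Ctrl and 0.579, 0.913 and 1.22 CPM in M3-CKO. All 4 thus had M3-CKO below Ctrl with no overlap, as did 13.5% of all tested genes. The 4 chose the set and may share reads, so nothing is read from their count. The sum of the basal cell markers (6 of 6 with a row) was separated in the same direction, with 1782 to 2199 CPM in Ctrl and 514.2 to 896.0 CPM in M3-CKO. Krt5, Krt14 and Krt15 were separated singly, while Trp63, Ngfr and Dlk2 were within the Ctrl range in replicate 3. The sum of the goblet markers (5 of 5 with a row) was separated in the other direction, with 68.5 to 172.7 CPM in Ctrl and 359.1 to 1045 CPM in M3-CKO. Of these markers only Gp2 was separated singly, with 52.7 to 88.2 CPM in Ctrl and 269.1 to 969.9 CPM in M3-CKO. In Muc5ac, Muc5b, Spdef and Tff2 the groups overlapped. At low levels the ionocyte sum (5.07 to 12.1 CPM in Ctrl, 2.85 to 3.25 in M3-CKO) and the mesenchymal sum (3.38 to 12.4 and 1.35 to 3.05 CPM) were also lower without overlap, and the endothelial sum (0.106 to 0.218 and 0.814 to 1.14 CPM) was higher. The part of these cell types in the Ugt1a result was not tested. None of 4 hepatocyte markers had a row.

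**Figure D1:**
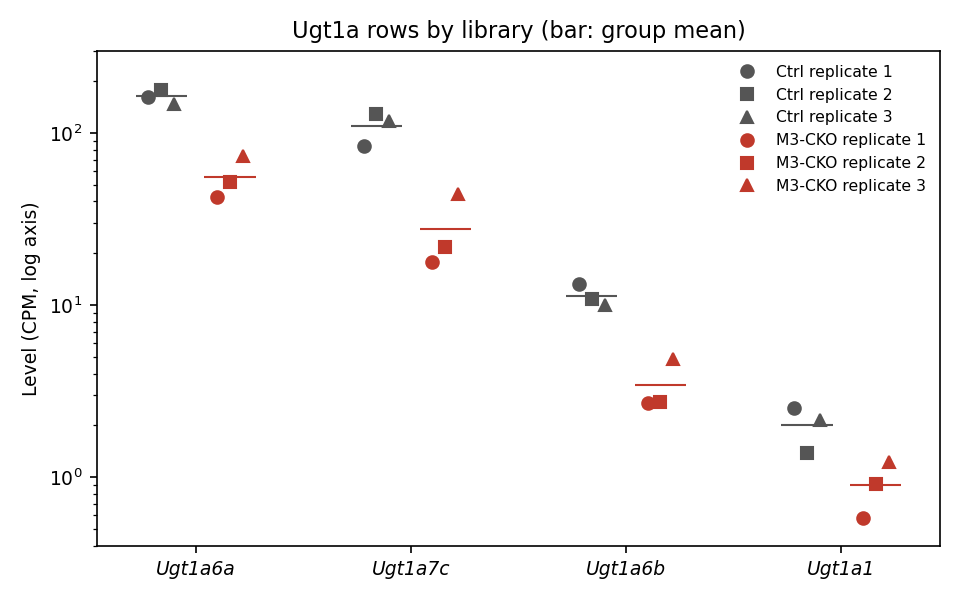
Level of the 4 tested Ugt1a genes in each library, in CPM on a log axis, with Ctrl in grey, M3-CKO in red, replicates 1 to 3 as circle, square and triangle, and a bar at each group mean. Every M3-CKO point lies below every Ctrl point of the same gene, and replicate 3 is the highest M3-CKO point in all 4.

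The log2 fold changes were -1.98 (SE 0.36) for Ugt1a7c, -1.71 (SE 0.34) for Ugt1a6b, -1.55 (SE 0.22) for Ugt1a6a and -1.14 (SE 0.49) for Ugt1a1. The first 3 passed the edgeR threshold (adjusted p under 0.05 over 13528 genes) and Ugt1a1 did not. Over all tested genes 1.16% passed it in the lower direction and 1.74% in the higher. These are the values that chose the set, and nothing is read from their count. The 3 genes lost the call when any 1 library other than M3-CKO replicate 3 was left out, with log2 fold changes that stayed between -1.38 and -2.49 over the 6 omissions.

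Summed over the 7 rows, Ugt1a reached 263.3, 319.9 and 276.5 CPM in Ctrl and 63.3, 77.1 and 124.0 CPM in M3-CKO, 30.8% of the Ctrl mean. The sum does not depend on how reads were split among the rows, though it does on whether shared reads were kept. Ugt1a6a gave 56.9% ± 4.32 of the Ugt1a counts in Ctrl and 64.2% ± 4.39 in M3-CKO (SD, n = 3), and Ugt1a7c gave 38.2% ± 5.41 and 30.5% ± 4.34. The libraries of the groups overlapped in both shares. Among all other tested genes, those whose log2(CPM + 1) followed the Ugt1a sum most closely over the 6 libraries were Zhx3, Akr1e1, Tspyl4, Magt1 and LOC118567621 (Pearson r 0.994 to 0.996). They are named as a description only, since libraries in 2 separate groups give a high likeness to any gene that differs between them.

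The other Ugt family was low in Ctrl. Ugt2b34, an enzyme of the Ugt2b family whose members conjugate steroids and other lipophilic compounds, stood at 0.218, 7.93 and 4.38 CPM in Ctrl and at 22.3, 20.9 and 25.9 CPM in M3-CKO. The groups did not overlap, and the Ctrl libraries were spread from 2 to 75 counts. The mean was 4.18 ± 3.86 CPM in Ctrl and 23.0 ± 2.61 CPM in M3-CKO. The log2 fold change of 2.46 (SE 0.79) was not called by edgeR with the low-count filter and was called without it, and it ran from 1.90 without Ctrl replicate 1 to 3.32 without Ctrl replicate 2. DESeq2 called Ugt2b34 and Sult1b1 among the 23 tested genes outside Ugt1a, and the same 3 Ugt1a genes. It called 10.4% of all tested genes, and nothing is read from these counts. Ugt2b35 was the only other Ugt2 row and had 2 counts, both in Ctrl replicate 2.

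Many of the other conjugation genes were unevenly spread within the M3-CKO group. In 13 of the 27 tested genes, M3-CKO replicates 1 and 2 were below every Ctrl library while replicate 3 was not. The same arrangement was found in 15.3% of all tested genes. The 13 were Gsta3, Gsta4, Gstk1, Gstm1, Gstm2, Gstm7, Gstp2, Gstt1, Gstt3, Mgst1, Mgst3, Sult1a1 and Sult1d1. Relative to the Ctrl mean, replicates 1 and 2 together stood at 12.9% to 65.1% (median 51.4%), and replicate 3 at 93.6% to 217.0% (median 138.7%). Replicate 3 lay above both other M3-CKO libraries in 23 of the 27, against 45.4% of all tested genes. This grouping was made after the values were seen, so it carries no test. The sum of the club markers had the same arrangement, and so had the Sprr2a3-led hillock and squamous sum, whose other 4 markers were below Ctrl in replicate 3. Within the club list Cyp2f2, Scgb3a2 and Bpifa1 had it singly. Krt8 ran the other way, with 321.6 to 429.2 CPM in Ctrl and 578.9, 585.0 and 251.2 CPM in M3-CKO. Scgb1a1 was above Ctrl in every M3-CKO library, and Scgb3a1 was within the Ctrl range in M3-CKO replicate 1. The part of these cell types in the arrangement was not tested.

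**Figure D2:**
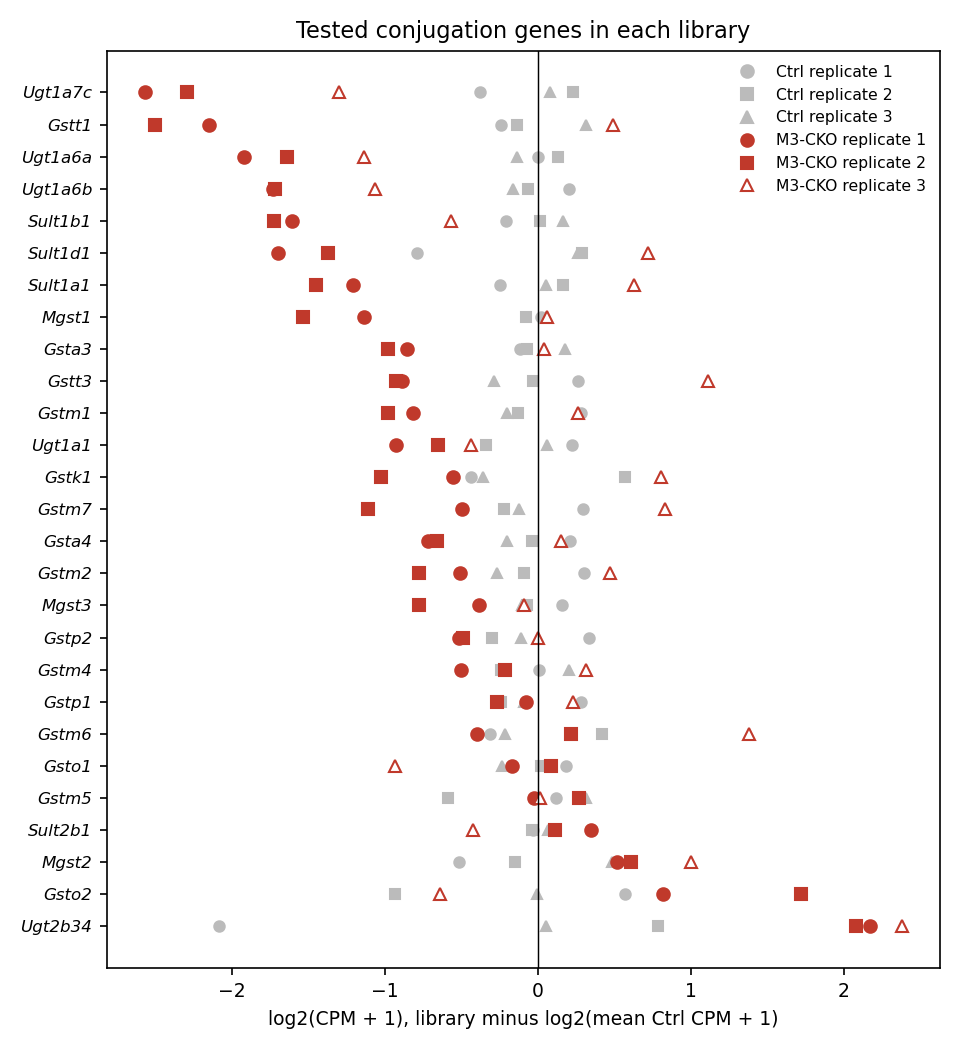
The 27 tested conjugation genes in each library, as log2(CPM + 1) minus the log2(mean + 1) of Ctrl, with Ctrl in grey, M3-CKO replicates 1 and 2 in filled red and replicate 3 as open triangles, ordered by the mean of M3-CKO replicates 1 and 2. The open triangles lie within or to the right of the grey points for the 13 genes named in the text, and to the left of them for the 4 Ugt1a genes, Sult1b1, Gsto1 and Sult2b1.

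Theta-class transferases act on small halogenated compounds. The gap between replicate 3 and the other M3-CKO libraries, as a ratio, was wider in Gstt1 than in the other 12 genes. Gstt1 stood at 9.28, 10.04 and 14.2 CPM in Ctrl and at 1.74, 1.14 and 16.1 CPM in M3-CKO. Thus replicates 1 and 2 were at 12.9% of the Ctrl mean and replicate 3 at 144.0%. Gstt3 stood at 132.3, 107.8 and 90.3 CPM in Ctrl and at 59.0, 57.5 and 239.0 CPM in M3-CKO. Neither group difference was called, and the log2 fold change of Gstt3 turned from 0.11 (SE 0.54) to -0.92 (SE 0.17) without M3-CKO replicate 3.

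Both tested alpha-class genes and 3 of 6 tested mu-class genes, Gstm1, Gstm2 and Gstm7, had this arrangement. Gsta4, which conjugates the lipid peroxidation product 4-hydroxynonenal, stood at 340.6, 286.1 and 254.7 CPM in Ctrl and at 178.2, 185.7 and 326.5 CPM in M3-CKO. Gsta3, the transferase that protects mice from aflatoxin, stood at 167.3, 172.8 and 205.4 CPM in Ctrl and at 100.2, 91.5 and 187.2 CPM in M3-CKO. Gstm1, a broad-range mu enzyme, stood at 639.1, 481.2 and 458.2 CPM in Ctrl and at 298.8, 265.9 and 631.4 CPM in M3-CKO. In all 3, replicates 1 and 2 lay below Ctrl and replicate 3 lay within the Ctrl range. Gstm2 reached 291.4, 221.1 and 195.7 CPM in Ctrl and 165.2, 137.0 and 327.3 CPM in M3-CKO, so its replicate 3 lay above every Ctrl library. Gstm4 ran from 6.37 to 12.00 CPM and Gstm5 from 2.96 to 6.402 CPM over the 6 libraries, with overlapping groups. Gstm6 and Gstm7 were higher in M3-CKO replicate 3 (5.09 and 8.54 CPM) than in any other library, where they reached at most 2.11 and 5.57 CPM.

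Gstp1, a pi-class enzyme, differed least. It stood at 18.5, 12.6 and 14.04 CPM in Ctrl and at 14.2, 12.3 and 17.8 CPM in M3-CKO, with a log2 fold change of -0.02 (SE 0.25) whose sign changed with the libraries used and with scaling by library size alone. Gstp2 was low, with 1.06 to 2.18 CPM in Ctrl and 0.773 to 1.53 CPM in M3-CKO. Gstk1, the kappa-class enzyme of peroxisomes and mitochondria, stood at 2.40, 5.81 and 2.58 CPM in Ctrl and at 2.12, 1.26 and 7.02 CPM in M3-CKO.

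The omega genes differed from the other tested glutathione transferases in that M3-CKO replicate 3 lay below both other M3-CKO libraries. Gsto1 encodes an enzyme with thioltransferase and dehydroascorbate reductase activity. It stood at 2784, 2476 and 2077 CPM in Ctrl and at 2178, 2589 and 1282 CPM in M3-CKO. Its replicates 1 and 2 lay within the Ctrl range and replicate 3 was the lowest of the 6, at 52.4% of the Ctrl mean. Gsto2, its neighbour in the same class, stood at 6.01, 1.48 and 3.71 CPM in Ctrl and at 7.34, 14.6 and 2.03 CPM in M3-CKO. Gsto1, Gsto2 and the cholesterol sulfotransferase gene Sult2b1 were the 3 tested genes in which M3-CKO replicate 3 lay below both other M3-CKO libraries. Sult2b1 had 3.91 to 4.27 CPM in Ctrl and 5.41, 4.45 and 2.75 CPM in M3-CKO.

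**Figure D3:**
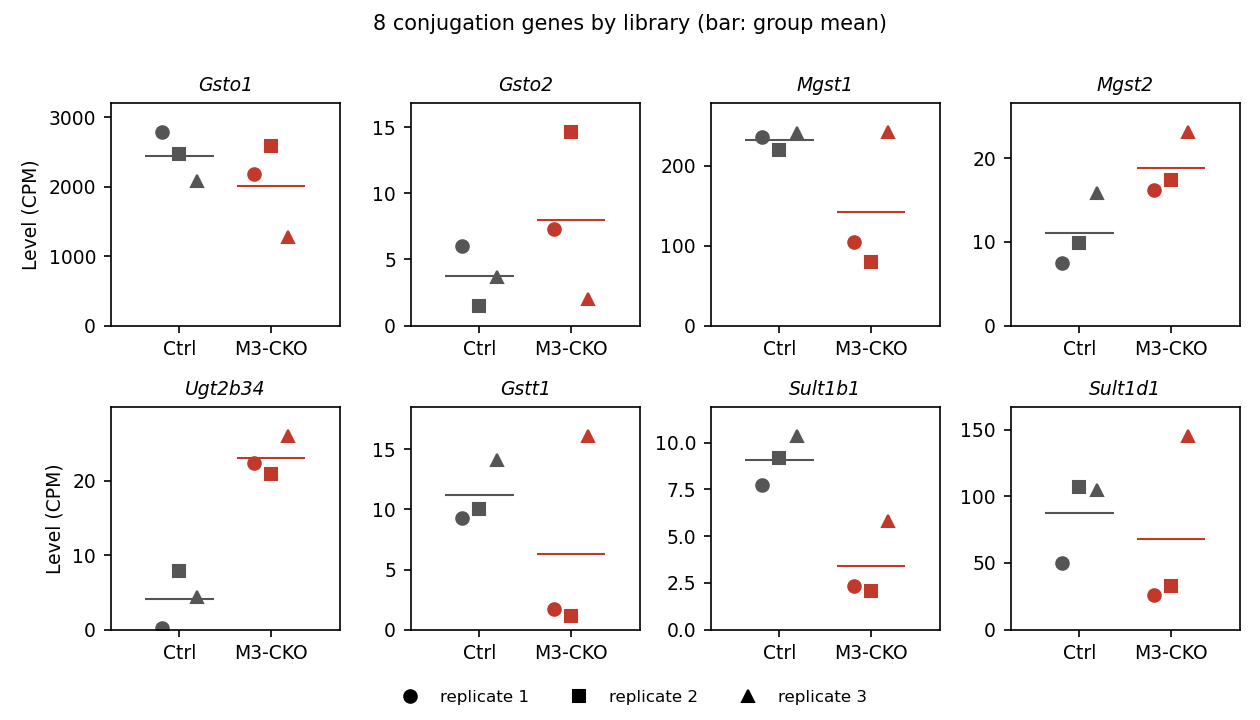
Levels of 8 conjugation genes in each library, in CPM on linear axes that start at 0, with Ctrl in grey, M3-CKO in red, replicates 1 to 3 as circle, square and triangle, and a bar at each group mean. Replicate 3 of M3-CKO is the lowest of the 6 libraries for Gsto1, the highest for Gstt1, Sult1d1, Mgst1, Mgst2 and Ugt2b34, and below all Ctrl libraries for Sult1b1.

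The membrane-bound transferases split. Mgst1, an abundant transferase and peroxidase of the endoplasmic reticulum, stood at 235.2, 219.7 and 240.8 CPM in Ctrl and at 104.7, 79.3 and 241.5 CPM in M3-CKO. Its Ctrl libraries were close to each other, and M3-CKO replicate 3 stood at the level of the highest of them. Mgst2, which can make leukotriene C4 outside blood cells, stood at 7.42, 9.83 and 15.8 CPM in Ctrl and at 16.2, 17.3 and 23.1 CPM in M3-CKO. M3-CKO lay above Ctrl with no overlap but little room between Ctrl replicate 3 and M3-CKO replicate 1, and the log2 fold change of 0.78 (SE 0.32) was not called. Mgst3 stood at 15.5, 13.1 and 12.8 CPM in Ctrl and at 10.3, 7.65 and 12.9 CPM in M3-CKO.

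Among sulfotransferases, Sult1b1, which acts on thyroid hormones and phenols, was the 1 tested gene outside Ugt1a whose M3-CKO libraries all lay below Ctrl. It stood at 7.75, 9.20 and 10.3 CPM in Ctrl and at 2.32, 2.05 and 5.80 CPM in M3-CKO, 37.3% of the Ctrl mean (log2 fold change -1.42, SE 0.44, not called by edgeR). Such a separation was found in 13.5% of all tested genes in the lower direction and in 13.7% in the higher. Counting Ugt1a, 5 of the 27 tested conjugation genes were separated downwards and 2, Mgst2 and Ugt2b34, upwards. Sult1d1, a sulfotransferase of catecholamines and eicosanoids, stood at 50.0, 107.2 and 105.0 CPM in Ctrl and at 26.2, 33.1 and 144.8 CPM in M3-CKO. Sult1a1, the main phenol sulfotransferase, stood at 20.0, 26.9 and 24.8 CPM in Ctrl and at 9.75, 8.10 and 37.4 CPM in M3-CKO. For both, M3-CKO replicates 1 and 2 were the lowest of the 6 libraries and replicate 3 the highest, as in Gstt1.

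The weight of replicate 3 showed in the fit. With all 6 libraries, 0 of the 23 tested genes outside Ugt1a were called by edgeR. At an unadjusted p under 0.05 were 3 of the 23, against 2774 of all 13528 tested genes. The median log2 fold change of the 23 was -0.17, against 0.02 over all tested genes. With the 4 Ugt1a genes, whose fall chose the set, 3 of 27 were called and the median was -0.35. Without M3-CKO replicate 3, 10 of the 23 were called lower and 1, Ugt2b34, higher, with a median of -0.70. In that fit 11.3% of all 13930 tested genes were called lower and 13.7% higher, with a median of -0.02. With Ugt1a, 13 of 27 were called lower and the median was -0.92. The 13 were Gsta3, Gsta4, Gstm1, Gstm2, Gstt1, Gstt3, Mgst1, Sult1a1, Sult1b1, Sult1d1 and the same 3 Ugt1a genes. Their M3-CKO group then holds only replicates 1 and 2, which were closer to each other than any pair of Ctrl libraries (r 0.967 to 0.977). Gstt1 moved furthest, from -0.82 (SE 0.87) to -2.93 (SE 0.36). Sult1d1 moved from -0.36 to -1.57, Sult1a1 from -0.37 to -1.42 and Mgst1 from -0.71 to -1.34. Ugt1a6a moved from -1.55 to -1.80 and Ugt2b34 from 2.46 to 2.36.

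**Figure D4:**
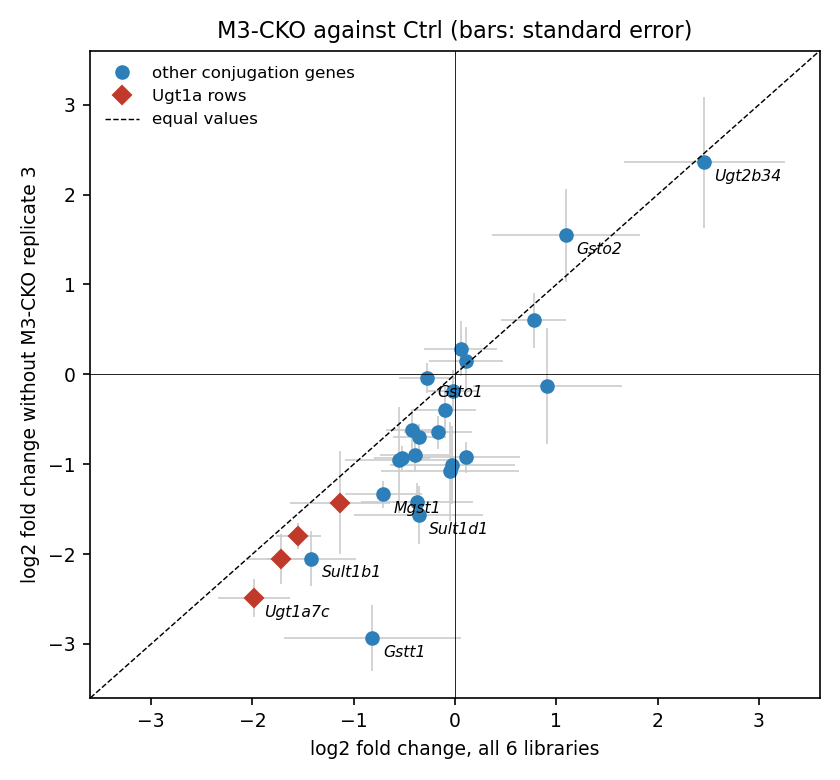
Log2 fold change of the 27 tested conjugation genes between M3-CKO and Ctrl, with all 6 libraries (horizontal axis) and without M3-CKO replicate 3 (vertical axis). Bars are standard errors, red diamonds are Ugt1a genes, and the dashed line marks equal values. Most points lie below the line, with Gstt1 furthest from it at -0.82 and -2.93.

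The genes that feed, drain and regulate conjugation were described from 7 lists of 93 genes, of which 86 had a row and 72 were tested. Their p-values come from the fit over all genes. Only Sts was called, and it was higher. Sts encodes steroid sulfatase, which removes sulfate from steroid conjugates. It stood at 3.603, 3.28 and 4.27 CPM in Ctrl and at 10.6, 8.44 and 12.9 CPM in M3-CKO (log2 fold change 1.52, SE 0.29, adjusted p = 0.043). The groups did not overlap, and the call was lost when any 1 library other than M3-CKO replicate 3 was left out. In all, 1 of 72 was called higher and 0 lower, against 1.74% and 1.16% of all tested genes. At an unadjusted edgeR p under 0.05 were 23 of the 72, against 2774 of all 13528 tested genes. DESeq2 called 13, against 10.4% of all. Without M3-CKO replicate 3, 13 of 73 were called higher and 17 lower, against 13.7% and 11.3% of all. The counts for single lists below stand beside these same shares.

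In glutathione supply, 0 of 16 tested genes were called, with 6 at an unadjusted p under 0.05 and 4 called by DESeq2. Slc7a11, the cystine carrier that limits glutathione synthesis in culture, stood at 21.9, 40.0 and 24.5 CPM in Ctrl and at 122.0, 128.5 and 53.6 CPM in M3-CKO. Its groups did not overlap, and its log2 fold change of 1.81 (SE 0.38) missed the edgeR threshold narrowly (adjusted p = 0.0503). Gclc, the catalytic subunit of the first step, stood at 498.6, 452.4 and 474.5 CPM in Ctrl and at 318.1, 326.7 and 343.4 CPM in M3-CKO (-0.53, SE 0.14, edgeR adjusted p = 0.087). In Gclc replicate 3 was also below every Ctrl library, at 72.3% of the Ctrl mean against 67.8% for M3-CKO replicates 1 and 2 together. Gclm, its modifier subunit, and Gsr, which reduces oxidized glutathione, had log2 fold changes of -0.12 and 0.03 (edgeR adjusted p = 0.72 and 0.94).

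In glucuronic acid supply, 0 of 5 were called (1 at an unadjusted p under 0.05, 1 by DESeq2). Ugp2, which makes UDP-glucose, stood at 177.9, 157.2 and 176.9 CPM in Ctrl and at 95.4, 91.3 and 130.0 CPM in M3-CKO (-0.69, SE 0.18, edgeR adjusted p = 0.081). It is named here because of its values. Ugdh, which oxidizes UDP-glucose to UDP-glucuronic acid, stood at 60.3 to 80.6 CPM in Ctrl and at 54.7 to 62.9 CPM in M3-CKO (-0.27, SE 0.16, edgeR adjusted p = 0.40). In sulfate supply and removal, Sts was the 1 called gene of 9 (4 at an unadjusted p under 0.05, 4 by DESeq2). Papss1 and Papss2 make the sulfate donor. Papss1 had a log2 fold change of -0.27 (SE 0.18, edgeR adjusted p = 0.44). Papss2 stood at 6.66, 12.7 and 36.2 CPM in Ctrl and at 6.95, 4.91 and 5.70 CPM in M3-CKO, so that Ctrl replicate 1 lay within the M3-CKO range and Ctrl replicate 3 made much of the difference (-1.66, SE 0.58, edgeR adjusted p = 0.17; -0.73 without Ctrl replicate 3).

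Of the pumps that export conjugates, 0 of 6 were called (2 at an unadjusted p under 0.05, 1 by DESeq2). Abcc3, a pump for glucuronides, stood at 10.9, 19.8 and 14.8 CPM in Ctrl and at 40.5, 38.3 and 28.3 CPM in M3-CKO (1.23, SE 0.27, edgeR adjusted p = 0.057). Abcc1 and Abcc4 had log2 fold changes of 0.26 and 0.29 (edgeR adjusted p = 0.45 and 0.62). The regulators had 0 of 14 called, with 6 at an unadjusted p under 0.05 and 1 by DESeq2. Nfe2l2, which encodes NRF2, stood at 407.6 to 473.2 CPM in Ctrl and at 477.0 to 539.3 CPM in M3-CKO (0.20, SE 0.15, edgeR adjusted p = 0.51). Keap1, its inhibitor, had a log2 fold change of 0.31 (SE 0.13, edgeR adjusted p = 0.23). Ahr, the aryl hydrocarbon receptor, stood at 340.7, 428.6 and 364.0 CPM in Ctrl and at 668.7, 634.2 and 255.7 CPM in M3-CKO, with replicate 3 the lowest of the 6 (0.46, SE 0.34, edgeR adjusted p = 0.50).

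**Figure D5:**
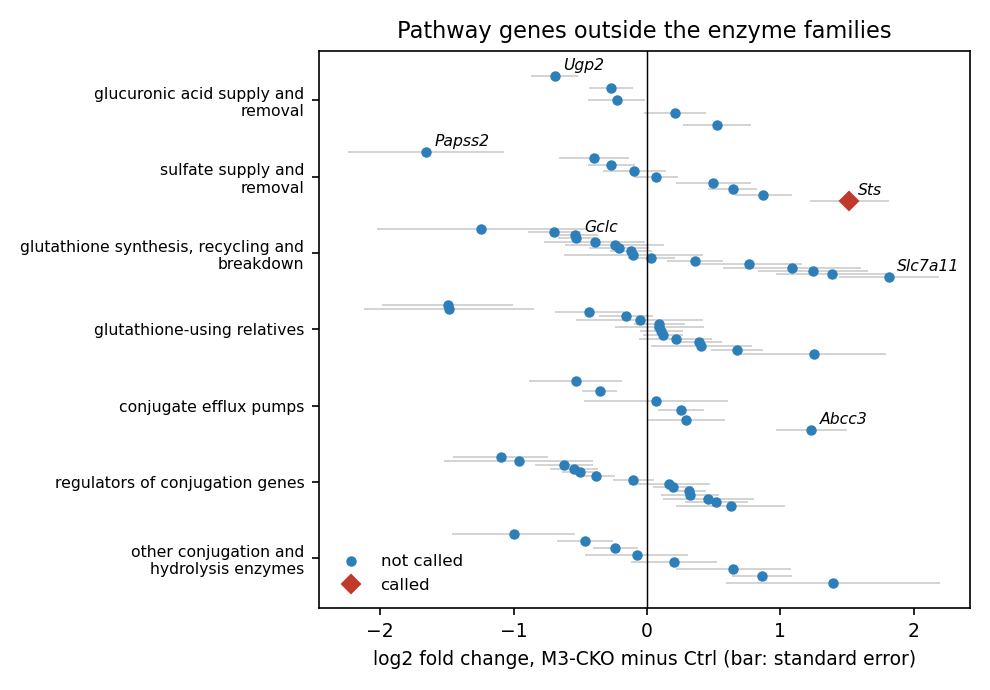
Log2 fold change between M3-CKO and Ctrl of the 72 tested genes of 7 lists around the conjugation enzymes, 1 point per gene with its standard error, grouped by list on the vertical axis. The red diamond is Sts, the 1 called gene, and all other points are blue.

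The glutathione-using relatives that the symbol rule did not take had 0 of 14 called (3 at an unadjusted p under 0.05, 1 by DESeq2). Their median log2 fold change was 0.10. Other conjugating and hydrolysing enzymes had 0 of 8 called (1 at an unadjusted p under 0.05, 1 by DESeq2). Ephx1, the microsomal epoxide hydrolase, stood at 564.5, 397.3 and 384.5 CPM in Ctrl and at 293.7, 267.7 and 716.6 CPM in M3-CKO, with replicates 1 and 2 lowest and replicate 3 highest, as in Gstm2 and Gstt3 (-0.07, SE 0.39, edgeR adjusted p = 0.94). Nqo1, the quinone reductase that both NRF2 and the aryl hydrocarbon receptor induce, stood at 80.0, 62.2 and 99.6 CPM in Ctrl and at 94.0, 131.0 and 53.7 CPM in M3-CKO (0.20, SE 0.32, edgeR adjusted p = 0.78).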

How the data were processed

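RNA-seq counts from 6 of the 10 libraries were analysed. The other 4, of N6-methyladenosine immunoprecipitation and its input, have no columns in the table and were not analysed here. The deposited values are whole-number counts per gene symbol. The submitters' processing notes name Trim Galore, HISAT2 and featureCounts and build mm39. The sources used here do not give versions, annotation, strand setting or the handling of reads that fit several genes. Libraries were made from fragmented mRNA, per the series' design text.

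Genes were kept with filterByExpr (13528 of 22457), TMM factors (0.956 to 1.05) scaled the library sizes, and M3-CKO was compared with Ctrl by the quasi-likelihood test of edgeR 4.0.16 in R 4.3.3, two-sided, with no covariate and Benjamini-Hochberg adjustment over all tested genes. Adjusted p-values come from this test. A gene was called at an adjusted p under 0.05. The SE of a log2 fold change is its size over the square root of F. Only the main edgeR fit was run on simulated counts. These had the same spread in both groups and no outlying library, so they do not show how the fit handles M3-CKO replicate 3. Alternatives were no filter, a stricter filter (mean of at least 1 CPM and 10 counts in 3 libraries), size factors of DESeq2 1.42.0 or no factors in the edgeR test, the DESeq2 Wald test, limma-voom (limma 3.58.1), the replicate number as a block, leaving out each library, and summing the Ugt1a rows.

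The genes and lists were chosen with earlier results of these data known. Named genes were Mettl3, every Ugt1a row, conjugation genes with a mean of at least 5 CPM, a call or the highest or lowest log2 fold change of their family, the called genes of each list, 15 listed pathway genes, and the 5 genes most like the Ugt1a sum. Promoters came from a RefSeq table on GRCm38.p6, matched by symbol.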

Additional observations from a re-analysis of the deposited data

How the results depend on the processing

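The counts of calls depended on the libraries and the tool. Over all genes, 393 were called, and 740 without a low-count filter, 1402 by DESeq2, 20 with the replicate number as a block, and 0 to 3483 when single libraries were left out. Of the conjugation genes 3 were called, and 5 by DESeq2, 0 with the replicate block, 1 (the summed row) when Ugt1a rows were summed before the fit, and 0 to 14 over the omissions. Of the pathway genes 1 was called, and 2 with library size alone, 3 without a filter, 13 by DESeq2, 0 by limma-voom, 0 with the replicate block, and 0 to 30 over the omissions. Without Ctrl replicates 1, 2 and 3 edgeR called 0, 1 and 0 genes in all, with 2378, 2044 and 1963 at an unadjusted p under 0.05. The summed Ugt1a level had a log2 ratio of -1.70, and -1.51 to -2.03 over the omissions. Same-numbered libraries did not deviate together (r -0.02, 0.02 and -0.11 for replicates 1 to 3), and no library correlated best with its own number, so the block has no basis in the labels or the data.

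Of the recomputed log2 fold changes of 43 named genes, 520 kept their direction and side of the threshold, 27 newly passed it, 25 no longer passed it, and 26 changed sign. No gene called with all 6 libraries changed sign, and Gstt3 changed sign and was called lower without M3-CKO replicate 3. Without a low-count filter 4 conjugation genes were called, the 3 Ugt1a genes and Ugt2b34. Gstt3 was at -0.22 by limma-voom and -0.26 with the replicate block, and Gstp1 at 0.0016 with library size alone. Over the omissions, values ran from -1.08 to 0.47 for Gstk1, from -0.65 to 0.0701 for Gstm2, from -0.40 to 0.0844 for Gstm4, from -0.16 to 0.33 for Gstm5, from -0.13 to 1.41 for Gstm6, from -0.18 to 0.15 for Gstp1, from -0.92 to 0.44 for Gstt3, from -1.57 to 0.0275 for Sult1d1 and from -0.17 to 0.29 for Sult2b1. They ran from -0.0679 to 0.17 for Gsr, from -0.0745 to 0.51 for Abcc4, from -0.11 to 0.48 for Nqo1 and from -0.68 to 0.18 for Ephx1. The causes were not tested. Values that rest on under 10 counts in a library, such as those of Ugt1a1 in M3-CKO replicates 1 and 2 and Ugt2b34 in Ctrl replicate 1, are imprecise at this depth.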
